A study of Homo sapiens with 12 samples.

Results

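Peaks of N6-methyladenosine (m6A) that run across a splice junction were described in 143B cells, an established human osteosarcoma line. Each peak was deposited as 1 or more exon blocks, and a peak with 2 or more blocks is called spliced here. The 6 peak lists held 81380 peaks, of which 10583 (13.0%) were spliced and 70797 had a single block. The spaces between the blocks of a peak are called gaps, and a gap with its exact borders and strand is called a junction. The spliced peaks held 12807 gaps at 6972 distinct junctions, in 4148 of the 10536 genes with any peak (39.4%).

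The cells were transfected with ALKBH5-siRNAs (the knockdown) or scrambled-siRNA (the control) and harvested at 48 h. In MeRIP-seq, RNA fragments that an m6A antibody captures are sequenced, and each of the 6 pulled-down libraries has 1 peak list, 3 per siRNA. The protocol in the labels ties each replicate number to a method. Polyadenylated RNA went into replicates 1 and 3, each with its own antibody. Total RNA went into replicate 2 with a kit and a further antibody. Values were therefore set side by side within numbers. Tests of 3 libraries against 3 leave the numbers out, so their SDs and p-values include the spread between methods. A separate antibody field gives 1 product throughout, that of replicate 1, and the 6 input libraries were not analysed here. Nothing in the labels says whether libraries of a group were separate cultures, so p-values measure only the spread between these libraries. ALKBH5 had no peak in the 3 knockdown lists and 1 single-block peak in each of control replicates 1 and 3. Peak calls do not measure RNA, so the depth of the knockdown is unknown.

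m6A is written on nascent transcripts by a complex around METTL3 and METTL14, read by YTH proteins and removed by ALKBH5 in the nucleus. Splicing leaves an exon junction complex near each junction, which is known to shield nearby RNA from methylation, and m6A is known to concentrate in long internal exons and in last exons. A MeRIP-seq peak is broader than the methylated base, since whole fragments are captured, so a peak that crosses a junction does not place the base on either side of it.

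Spliced peaks were a minority in every list and rarest in replicate 2. The knockdown lists held 2533, 267 and 3175 spliced peaks in replicates 1, 2 and 3, and the control lists held 1709, 233 and 2666. Most had just 2 blocks, from 81.2% in knockdown replicate 1 to 92.7% in control replicate 2. Peaks with 3 blocks numbered 372, 19 and 468 in the knockdown and 252, 14 and 319 in the control. Peaks with 4 or more numbered 103, 2 and 107, and 66, 3 and 58. In exon length, spliced peaks held 18.8%, 5.22% and 24.6% of the exon nucleotides (nt) of the knockdown lists, against 13.3%, 4.57% and 19.6% in the controls.

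Genes that lack introns were counted apart. If gene models set the block borders, which the sources used here do not state, these genes could hold no spliced peak. In that case the count was fixed in advance. Of 38 such genes on a list that includes JUN, CEBPB, SOX4 and FOXC1, all transcription factors, 28 carried a peak. None of their 293 peaks was spliced. That allows a share of up to 1.02% only if peaks are taken as independent, and these came from 28 genes counted again in each list. Of the 6692 peaks without a gene number 4.14% were spliced, pooled over lists, against 13.8% of the rest. By list, the shares without a gene number were 3.84%, 1.29% and 6.03% in the knockdown and 2.36%, 0.948% and 5.69% in the controls. With a gene number they were 15.3%, 4.79% and 18.3%, and 12.1%, 4.36% and 15.0%, and the difference was not tested. Among genes that RefSeq lists as long noncoding RNA, the spliced share was 13.6%, 4.59% and 16.0% of peaks in the knockdown lists and 9.28%, 3.96% and 15.1% in the controls. For protein-coding genes it was 15.6%, 4.83% and 18.6%, and 12.3%, 4.38% and 15.2%.

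The blocks around a junction were unequal. The shorter block of 2-block peaks had a median of 43, 28.5 and 48 nt in the knockdown lists, in order of replicate number, against 39, 27 and 40 nt for the controls. The median longer block was 288, 137 and 445 nt, and 159, 133 and 422 nt. Junctions lay toward an end of the peak more often than in its middle, most in replicate 3. In control replicate 3, 32.8% of 2-block peaks had at most 10% of their exon length 5′ of the junction and 19.6% had over 90%, while 3.28% had 40 to 50%. The same shares were 17.5%, 11.6% and 7.12% in control replicate 1 and 18.5%, 15.7% and 10.6% in control replicate 2. In the knockdown lists they were 23.0%, 14.5% and 5.30% in replicate 1, 20.3%, 14.2% and 6.50% in replicate 2, and 32.4%, 15.0% and 3.62% in replicate 3. At the edge of the definition, between 34.6% (knockdown replicate 3) and 56.7% (control replicate 2) of spliced peaks had a block under 30 nt, and single-block peaks have none to compare.

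The longer block was more often the one 3′ of the junction. In the transcript's direction, the 5′ block was the longer in 45.1%, 45.9% and 39.7% of 2-block peaks in knockdown replicates 1, 2 and 3. It was the longer in 46.9%, 44.0% and 42.4% in the controls. All 6 lists lay under 50%, with a mean of 44.0% ± 2.64 (SD, n = 6; two-sided exact sign-flip permutation test over the lists, p = 0.031, the smallest that 6 lists allow). That test takes the lists as independent, although those of one number share a method. With the 3 replicate numbers as units, an alternative chosen after the data were seen, p was 0.25 (exact permutation test), the smallest that 3 units allow, so the call was lost. This measure was chosen after the data were seen, and it was 46.4% with p = 0.19 (exact permutation test) when every block had to reach 30 nt. The median 3′ block was 273 nt against a 5′ block of 91 nt in knockdown replicate 3, and 79 nt on both sides in control replicate 1.

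**Figure D1:**
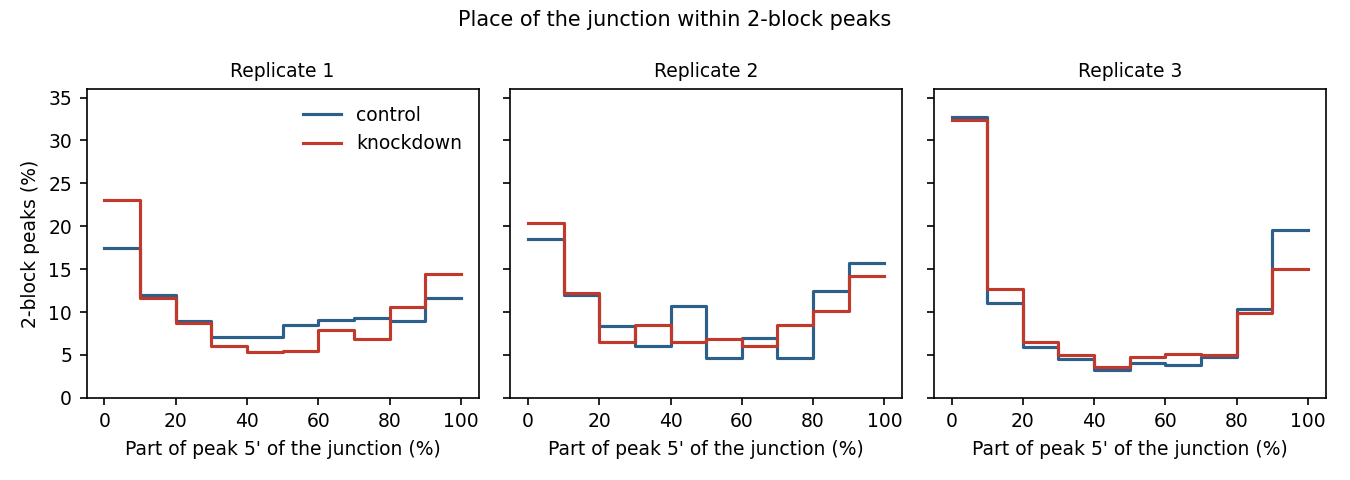
Share of 2-block spliced peaks (y axis, %) by the part of their exon length that lies 5′ of the junction (x axis, % in steps of 10), for control (blue) and knockdown (red) libraries of each replicate number. The first step is the fullest in all 6 lists, from 17.5% in control replicate 1 to 32.8% in control replicate 3, so the junction often lay near the 5′ end of the peak.

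Inner blocks, which lie between 2 gaps of a peak, were short. The knockdown medians were 102, 65 and 124 nt (607, 23 and 711 blocks). The control medians were 91, 95 and 136 nt (402, 20 and 461 blocks). The longest inner block, 2878 nt, was in both libraries of replicate 3. Of peaks with a gene name, the one with the most blocks lay in CHAF1A, a subunit of the chromatin assembly factor CAF-1. This peak of control replicate 1 held 8 blocks and 1433 nt of exon within chr19:4402720-4428676 (hg19, plus strand), with inner blocks of 51 to 857 nt. In EIF5B, a translation initiation factor, a peak of knockdown replicate 1 held 7 blocks and 1349 nt within chr2:99953984-99984982 (plus strand). COL6A2, a collagen VI chain of many small exons, had a 7-block peak of 361 nt in control replicate 1 with inner blocks of 51 to 63 nt. CCDC102A (1500 nt) and DRC3, a component of the ciliary dynein regulatory complex (952 nt), also reached 7 blocks.

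One peak stood apart from these. In control replicate 3 a peak without a gene number held 16 blocks of 3 to 14 nt, 151 nt in all, at chr22:22840635-22883952 (plus strand).

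Gaps varied widely in length. The knockdown lists had medians of 1741, 1421 and 2087 nt, and the control lists 1831, 2027 and 2330 nt. The middle 50% of gaps ran from 690 to 5835 nt in knockdown replicate 3 and from 814.5 to 6024 nt in its control. Of the 6972 junctions, 29 (0.416%) were under 50 nt, down to 1 nt, and 57 (0.818%) were over 100 kb. Only 62 junctions (0.889%) shared a border with another junction, and 92 (1.32%) had a peak block of some list wholly inside the gap. The gaps were not set against annotated introns, since no annotation of the hg19 build was used here.

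The longest gap called in at least 4 libraries lay in EXT1, which makes heparan sulfate chains. It spanned 272883 nt at chr8:118849441-119122323 (minus strand) and was listed in all 3 knockdown libraries and control replicate 3. The peak held 456, 128 and 1110 nt 5′ and 81, 81 and 140 nt 3′ of the gap in the knockdown, and 1110 and 21 nt in control replicate 3. In control replicate 1 a peak lay on the 5′ side and ended 127 nt from the junction. The next longest were 108702 nt in BICD1, an adaptor of dynein, 92569 nt in MFHAS1, 70231 nt in NTNG1, a netrin of axon guidance, and 61544 nt in JPX, a long noncoding RNA. None of these but MFHAS1 was listed in a library of replicate 2. Among gaps of at least 50 nt that were called in 4 or more libraries, the shortest were 77 nt in SH3D21, 80 nt in a stretch without a gene number, 81 nt in MICAL3, 84 nt in COMMD3-BMI1 and 86 nt in HSD17B1. COMMD3-BMI1 is a read-through transcript whose exons belong also to its member genes, so its peaks may be theirs. MICAL3, an oxidase of actin, was the only one of these listed in all 6 libraries.

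Spliced peaks were longer and ranked better than single-block peaks in every list. The score of a peak, taken as a p-value, was used only as a percentile within its list, where 100 is best. Median exon length was 360, 180 and 540 nt for spliced and 241, 151 and 300 nt for single-block peaks in the knockdown lists. It was 211, 180 and 510 nt against 204.5, 151 and 328 nt in the controls. The mean difference was 100.9 ± 95.4 nt (SD, n = 6; two-sided exact sign-flip permutation test, p = 0.031), and in control replicate 1 it was just 6.5 nt. A longer peak has more room to cross a junction, so the direction of the length difference was partly built into the definition of a spliced peak. The median percentile of spliced peaks was 62.2, 57.3 and 70.4 in the knockdown and 58.3, 59.4 and 69.7 in the controls. That of single-block peaks lay between 45.6 and 49.7. The mean difference was 14.7 ± 7.47 percentile points (SD, n = 6; exact permutation test, p = 0.031).

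The difference in percentile was smaller among peaks of like length. Within 10 classes of exon length the spliced peaks ranked 1.47, 2.36 and 3.30 points better in the knockdown lists and 1.13, 3.91 and 3.48 points better in the controls. The mean was 2.61 ± 1.14 points (SD, n = 6; two-sided exact sign-flip permutation test, p = 0.031), against 14.7 without the classes. Each of these tests over 6 lists needs all lists to move one way, and without any 1 list the smallest p is 0.062. With the 3 replicate numbers as units, p was 0.25 for length, percentile and percentile within classes (exact permutation tests), so these calls too were lost. With the best-scored 50% of each list, the difference in exon length was 55.8 nt (exact permutation test, p = 0.094) and that in percentile 9.16 points.

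The share of peaks found again in the paired library of the other siRNA did not differ between spliced and single-block peaks at the threshold of 0.05. Without regard to length, 69.6%, 51.7% and 89.3% of spliced peaks in the knockdown lists were overlapped by a peak of the paired control, against 62.8%, 63.8% and 84.1% of single-block peaks. For the control lists the shares were 71.2%, 57.5% and 91.7%, against 85.8%, 67.4% and 82.3%. The differences pointed both ways (mean -2.52 points; two-sided exact sign-flip permutation test, p = 0.56). Within 10 length classes they were -2.60, -14.3 and -3.70 points in the knockdown lists and -17.0, -13.1 and 0.696 points in the controls. The mean was -8.34 ± 7.35 points (SD, n = 6; exact permutation test, p = 0.062), which does not pass 0.05.

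The next comparison asked whether spliced peaks differed between knockdown and control. The spliced share was higher in the knockdown list of every pair. It was 14.4% against 11.3% of peaks in replicate 1, 4.51% against 4.10% in replicate 2, and 17.3% against 14.2% in replicate 3, differences of 3.13, 0.408 and 3.05 percentage points. The groups overlapped widely, with both libraries of replicate 2 below the other 4. The knockdown averaged 12.1% ± 6.71 and the control 9.88% ± 5.21 (SD, n = 3 each), a difference of 2.20 points (two-sided exact permutation test, p = 0.5; the smallest p for 3 against 3 is 0.1). With the pairs kept, the exact sign-flip permutation test gave p = 0.25, the smallest that 3 pairs allow. With lists of equal size the difference was 4.07 points. Without knockdown replicate 3 or control replicate 2 the difference of means turned to -0.410 and -0.688 points. Leaving out any library makes the methods of the groups unequal, and the cause of the turn was not tested.

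Peak length also differed between knockdown and control in replicates 1 and 3. Single-block peaks had a median of 241 nt in the knockdown and 204.5 nt in the control in replicate 1, but 300 and 328 nt in replicate 3. Shares were also averaged over 10 classes of exon length common to a pair, an alternative chosen after the data were seen. They were then 13.7% and 11.8% in replicate 1, 4.47% and 4.13% in replicate 2, and 17.3% and 14.3% in replicate 3. The differences were 1.93, 0.345 and 3.01 points, beside 3.13, 0.408 and 3.05 points over all peaks. Peaks of a class can still differ in length, and the part of length in these differences was not tested. Among genes with a peak in both libraries of a pair, an alternative also chosen after the data were seen, the differences were 4.24, 0.340 and 3.03 points.

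**Figure D2:**
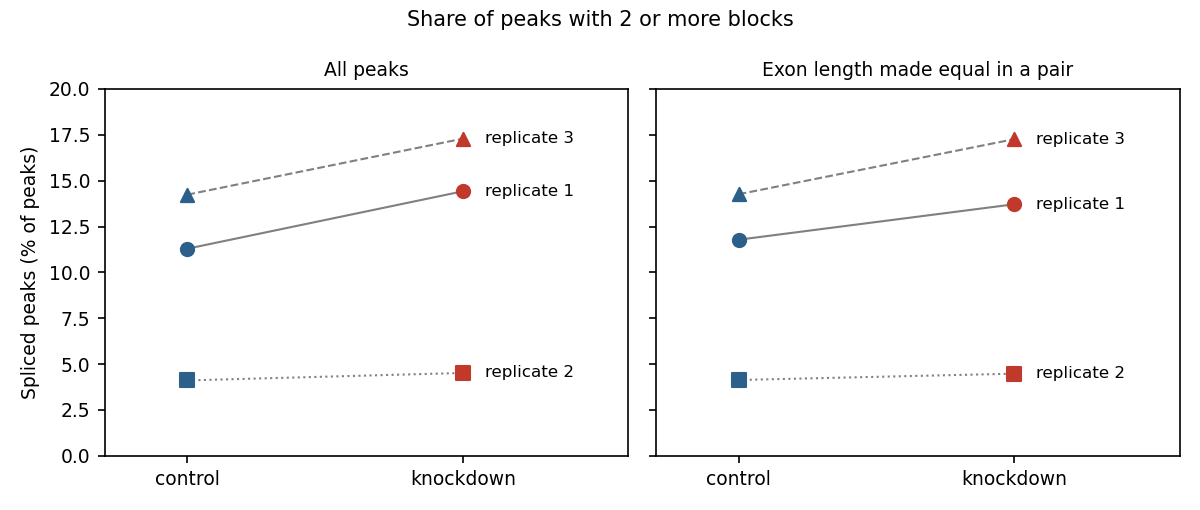
Spliced peaks as a percent of all peaks in each library (y axis), control on the left and knockdown on the right of each panel, with a line joining the libraries of a replicate number. The left panel uses all peaks, and the right panel shares averaged over length classes common to a pair. All 3 lines rise in both panels, by 3.13, 0.408 and 3.05 points on the left and 1.93, 0.345 and 3.01 on the right.

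The difference was larger among long peaks. In replicate 3, 28.7% of knockdown peaks and 21.9% of control peaks over 600 and up to 1000 nt were spliced, and 33.2% and 27.1% of longer ones. In peaks of up to 100 nt the shares were 4.94% and 4.24%. In replicate 1 the shares from 600 to 1000 nt were 22.7% and 18.1%, and in peaks of up to 100 nt 7.34% and 7.73%, with the control higher. In replicate 2 the order changed from class to class.

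**Figure D3:**
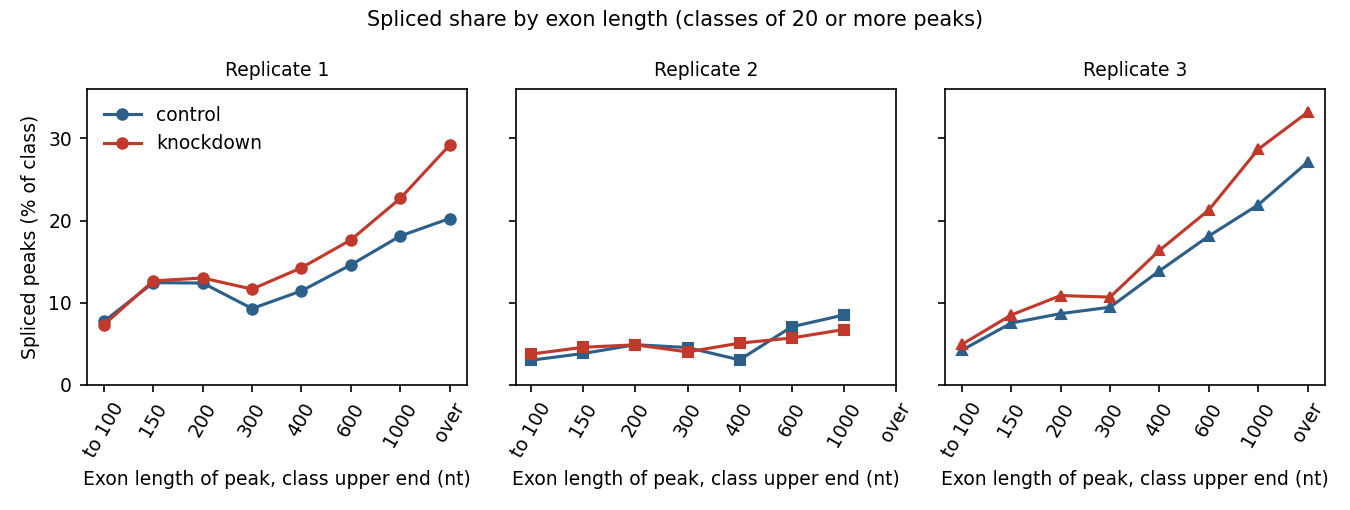
Spliced peaks as a percent of the peaks in a class of exon length (y axis) against the class (x axis, upper end in nt), for control (blue) and knockdown (red) in each replicate number; classes of fewer than 20 peaks are not drawn. In replicates 1 and 3 the shares are highest over 600 nt, with falls between some shorter classes, and the knockdown line is the higher in every class over 100 nt, as with 28.7% against 21.9% from 600 to 1000 nt in replicate 3.

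Counts followed the same order in each pair. Spliced peaks averaged 1992 ± 1528 in the knockdown and 1536 ± 1226 in the control (SD, n = 3; exact permutation test, p = 0.7). Genes with a spliced peak numbered 2102, 247 and 2644 against 1479, 216 and 2260, and junctions 3111, 288 and 3816 against 2094, 251 and 3108 (exact permutation tests, p = 0.7 and 0.5, n = 3 per group). The total number of peaks was lower in the knockdown than in the control in replicate 3 (18360 and 18724), while its spliced peaks were more. The median gap, given above, was shorter in the knockdown list of each pair, with a mean difference of -313 nt (exact permutation test, p = 0.3, n = 3 per group). With the pairs kept, exact sign-flip permutation tests gave p = 0.25 for spliced peaks, genes, junctions and gap, the smallest that 3 pairs allow. Without knockdown replicate 3 or control replicate 2, the differences in spliced peaks (-136 and -195.8), genes (-143.8 and -205.2) and junctions (-118.2 and -196.0) changed sign.

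The same sites were then followed within a pair. Peaks that overlapped on one strand were joined into 21675 regions, of which 5284 held a spliced peak in some list. Among 9029 regions called in both libraries of replicate 1, 863 (9.56%) were spliced in the knockdown alone, 277 (3.07%) in the control alone and 919 in both. In replicate 2 there were 2946 such regions, with 72 (2.44%), 62 (2.10%) and 86. In replicate 3 there were 13413, with 911 (6.79%), 537 (4.00%) and 1853. The net differences were 6.49, 0.339 and 2.79 percentage points, all toward the knockdown (mean 3.21 ± 3.10, SD, n = 3 pairs; two-sided exact sign-flip permutation test, p = 0.25, the smallest possible).

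Regions that were spliced in 1 library were longer there. A peak that reaches across a junction tends to hold more exon nt, so this direction was partly built into the sorting of regions. In replicate 3, regions spliced in the knockdown alone had a median of 625 nt of peak in the knockdown and 480 nt in the control, while regions spliced in neither had 390 nt in both. Regions spliced in the control alone had 417 nt in the knockdown and 536 nt in the control. In replicate 1 the medians for knockdown-alone regions were 600 and 323 nt, but regions spliced in neither also differed, at 420 and 271 nt. In replicate 2 they were 361 and 210.5 nt, and 240 and 211 nt.

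Whole regions were also compared. In replicate 1, 658 of 3170 regions with a spliced peak in that pair (20.8%) had a knockdown call alone, below the 30% of all regions called in either library. Control calls alone were above the background, at 14.3% against 11.3%. In replicate 2 the shares were 25.4% against 24%, and 19.9% against 21.7% for the reverse. In replicate 3 both were below it, at 7.87% against 13.1% and 5.56% against 15.3%. A region called in both libraries has 2 chances to hold a spliced peak, which lowers these shares.

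Exact junctions were followed too. A junction counts as shared only with identical borders, while a region needs 1 nt of overlap, so their sharing is not on the same scale. In replicate 1, 1052 junctions were in both lists, 2059 in the knockdown alone and 1042 in the control alone. The counts were 86, 202 and 165 in replicate 2 and 2150, 1666 and 958 in replicate 3. As a share of the junctions in either list, 25.3%, 19.0% and 45.0% were in both. Over all lists, 3660 junctions (52.5%) were in 1 list, 1751 in 2, 940 in 3, 468 in 4, 104 in 5 and 49 (0.703%) in 6. Of 589 junctions that differed in both replicates 1 and 3, 331 were in the knockdown alone in both, 59 in the control alone in both and 199 went opposite ways. For replicates 1 and 2 the counts were 51, 11 and 29 of 91, and for replicates 2 and 3 they were 22, 10 and 10 of 42. In each pair more junctions were in the knockdown alone than in the control alone. Unrelated differences would therefore also give more joint knockdown than joint control junctions, and agreement beyond that was not tested.

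Where a junction was in 1 list of a pair, the other list most often had a peak on just 1 side of it in replicate 3, and on neither side in replicate 2. In replicate 1 neither side was the most frequent for control-alone junctions. For knockdown-alone junctions there, the 5′ side (479) and the 3′ side (583) together outnumbered neither side (910). Of the 1666 junctions in knockdown replicate 3 alone, the control had a peak over the 3′ part of the spliced peak in 766 (46.0%), over the 5′ part in 430 (25.8%), over both parts in 93 and over neither in 377 (22.6%). For the 958 junctions in control replicate 3 alone the shares were 43.8%, 25.1%, 4.18% and 26.9%. A longer part of a spliced peak has more room to meet a peak of the other list. The median 3′ and 5′ blocks of 2-block peaks were 273 and 91 nt in knockdown replicate 3. In its control they were 237 and 99 nt. The part of block length in the order of the sides was not tested. In replicate 1 the 3′ side was held in 28.3% of knockdown-alone and 26.0% of control-alone junctions, and the 5′ side in 23.3% and 14.6%, while 44.2% and 57.1% had a peak on neither side. In replicate 2, 70.3% and 66.7% had no peak on either side. Where 1 side was held, the other list's peak stopped at a median of 34.5 to 70 nt of exon from the junction over the 3 pairs, both directions and both sides.

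**Figure D4:**
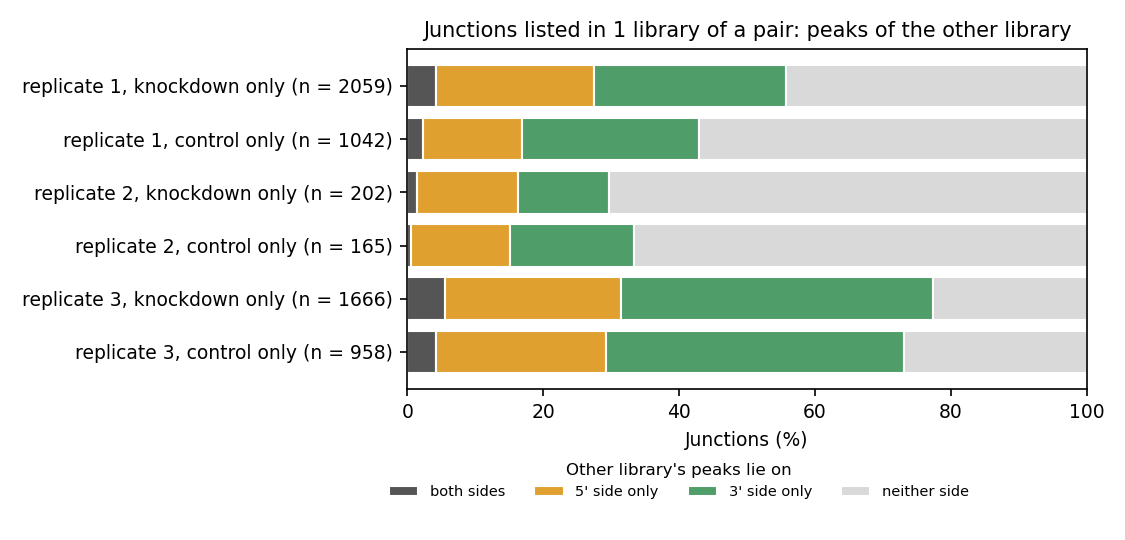
Junctions listed in 1 library of a pair (rows, with their number), split by where the other library of the pair had peaks over the spliced peak: both sides of the junction, the 5′ side, the 3′ side or neither (x axis, % of junctions). In replicate 3 the 3′ side is the largest part (46.0% and 43.8%), where 3′ blocks were more often the longer and had more room to be overlapped. In replicates 1 (44.2% and 57.1%) and 2 (70.3% and 66.7%) the largest part has a peak on neither side.

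Junctions in every knockdown list and no control list numbered 11, and none was in every control list and no knockdown list. The 11 are 0.158% of the 6972 junctions, while 28 of all 21675 regions (0.129%) were called that way, so the share is near that of regions at large. For the reverse, 0 of 6972 allows up to 0.0430% if junctions are taken as independent, beside 0.00923% of regions. No single junction can pass a test with 3 libraries against 3. With fewer libraries to meet, the counts for the knockdown and the control direction were 19 and 3 without knockdown replicate 1, 329 and 0 without its replicate 2, and 21 and 2 without its replicate 3. They were 13 and 6 without control replicate 1, 13 and 58 without its replicate 2, and 41 and 9 without its replicate 3.

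The best ranked of the 11 by its lowest percentile (84.6) was in ZNF276, a zinc finger gene, at chr16:89786991-89787392 (plus strand, gap of 402 nt). Its peak held 183, 183 and 183 nt 5′ and 267, 177 and 476 nt 3′ of the gap in knockdown replicates 1, 2 and 3. Control replicates 1 and 2 had no peak over these blocks, and control replicate 3 had peaks on both sides that did not cross, the nearest 32 nt from the junction. In INTS11, the endonuclease of the Integrator complex (chr1:1249746-1250203, minus strand, gap of 458 nt), the 5′ parts were 31, 1 and 271 nt and the 3′ parts 179, 239 and 299 nt. Control replicates 1 and 3 had a 3′ peak that began 88 and 29 nt from the junction.

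SIN3A, the scaffold of a histone deacetylase complex, had control peaks that stopped short of the junction in all 3 libraries. At chr15:75664551-75668005 (minus strand, gap of 3455 nt) the knockdown peaks held 16, 16 and 16 nt 5′ and 824, 164 and 913 nt 3′ of the gap. All 3 controls had a peak on the 3′ side alone, which began 133, 103 and 43 nt from the junction. TTC28 had them too, from the other side (chr22:28497269-28501266, minus strand, gap of 3998 nt). Its knockdown peaks held 665, 426 and 1563 nt 5′ and 144, 24 and 114 nt 3′, and the control peaks lay 5′ and stopped 6, 36 and 6 nt short.

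In CBX6, a Polycomb protein (chr22:39267763-39267906, minus strand, gap of 144 nt), the knockdown peaks held 86, 86 and 26 nt 5′ and 4, 4 and 124 nt 3′. Neither CBX6 nor MYO19, a mitochondrial myosin (chr17:34856800-34856908, gap of 109 nt), had a control peak over these blocks. Both ranked low, at 12.7 and 21.1 in their weakest list, and they alone of the 11 lay in regions with no control call.

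Also among the 11 were SDC3, a syndecan (lowest percentile 29.2), MICA, a ligand of natural killer cells (18.3), MICALL1, which acts in endocytic recycling (12.7), and HSF4, a heat shock factor, the lowest ranked and the 1 beyond the 10 that the rule names. The HSF4 peak held 88, 148 and 267 nt 5′ but only 32, 2 and 2 nt 3′ of its gap (chr16:67198048-67198343, plus strand). In 9 of the 11 some control list had a peak on at least 1 side of the junction or elsewhere in its region.

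**Figure D5:**
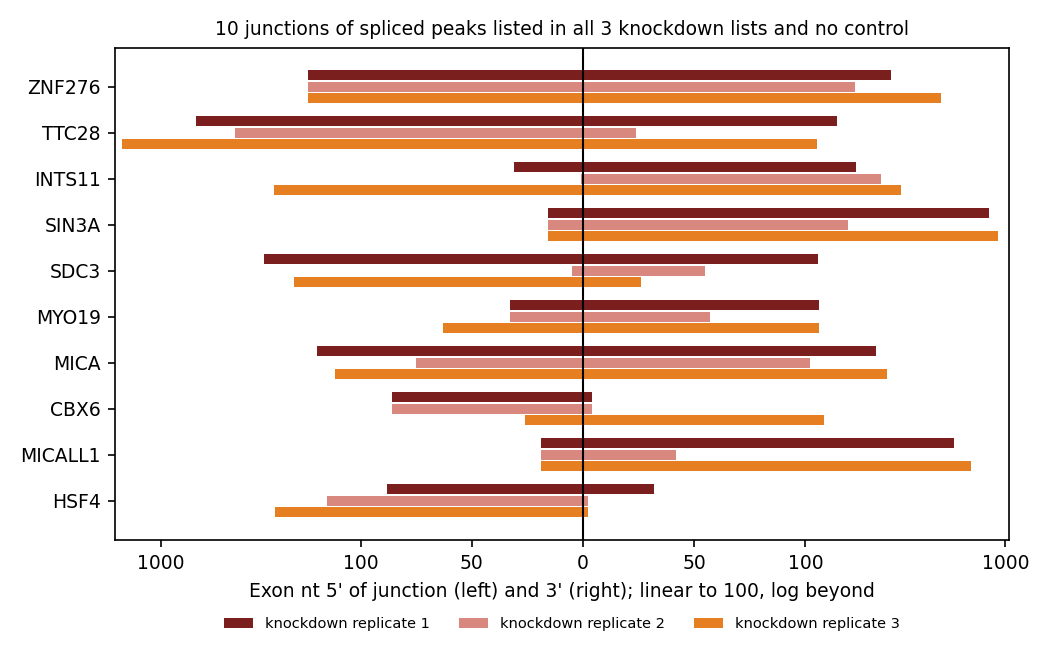
Exon nt of the spliced peak 5′ (left) and 3′ (right) of the junction for 10 of the 11 junctions that every knockdown list and no control list holds, with 1 bar per knockdown library; the axis is linear to 100 nt and logarithmic beyond. SIN3A shows the same 16 nt on its 5′ side in all 3 bars and between 164 and 913 nt on its 3′ side.

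A small core of junctions was found in all 6 lists. The genes named first were taken in alphabetical order, since they tied in their number of such junctions. The junction of CUL1, the scaffold of SCF ubiquitin ligases (chr7:148496481-148497593, plus strand), ranked at 90.1 or better everywhere. Its peaks held 78, 18 and 48 nt 5′ and 490, 400 and 520 nt 3′ in the knockdown, and 48, 78 and 78 nt and 460, 400 and 490 nt in the controls, with no separation of the siRNAs. That of CENPF, a kinetochore protein (chr1:214816668-214817899, plus strand), had 252, 162 and 252 nt 5′ in the knockdown and 42, 102 and 222 nt in the controls, longer in each pair. Its 3′ parts were 318, 198 and 557 nt, and 318, 228 and 677 nt.

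In BCAR1, an adaptor of integrin signalling (chr16:75263922-75267743, minus strand), the 5′ parts were 1076, 147 and 1106 nt in the knockdown and 1046, 57 and 1046 nt in the controls, again longer in each pair. Its 3′ parts were 514, 34 and 484 nt, and 364, 4 and 424 nt. CEP250, a centrosome linker protein, had 2429, 276 and 2429 nt 5′ in the knockdown and 455, 126 and 1472 nt in the controls. AKAP1, an anchor of protein kinase A at mitochondria, CLIP2, a microtubule-binding protein, and BSDC1 each had such a junction too, as did C19orf44. In the noncoding CRIM1-DT the only peak of each list was spliced at the same 106-nt gap.

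The best-ranked of the other genes spliced in all lists were NCOA2, a coactivator of nuclear receptors (94.8 in its weakest list), USP42, a deubiquitinase (91.0), ZC3H18, which links capped RNA to decay (88.6), FAT1, an atypical cadherin (86.8), and HIVEP3, a zinc finger transcription factor (86.6). The NCOA2 junction (chr8:71060719-71068205, minus strand) had 703, 733 and 763 nt 5′ and 135, 15 and 164 nt 3′ in the knockdown. The controls had 673, 703 and 793 nt and 105, 15 and 194 nt, so the peaks nearly coincided. In FAT1 the 5′ parts were 637, 217 and 727 nt in the knockdown and 637, 187 and 697 nt in the controls.

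In all, 60 genes (1.45% of those with a spliced peak) had a spliced peak in 6 lists and 1687 (40.7%) in 1. TTN, the giant sarcomere protein with very many exons, was singled out after its values were seen, since it had the most spliced peaks. They made up 6 of 8, 0 of 1 and 11 of 16 of its peaks in the knockdown lists and 2 of 6, 0 of 0 and 13 of 17 in the controls, at 21 junctions.

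Gene lists are described by counts, pooled over lists unless said otherwise, beside all genes, of which 39.4% of those with a peak had a spliced one and whose peaks were spliced in 13.8%. Of the 4148 genes with a spliced peak, 1858 had one in more knockdown than control libraries and 1005 in fewer. No difference between lists was tested. Extracellular matrix genes of many exons had 25.3% of 174 peaks spliced (12 of 21 genes), with 6 genes in more and 1 in fewer knockdown libraries. COL6A3 was spliced in 2 of 9, 0 of 2 and 4 of 6 peaks in the knockdown and 1 of 4, 0 of 1 and 2 of 7 in the controls. COL18A1 had 1 spliced peak in each list but control replicate 2, and TNC and COL5A2 had them in 4 lists. ZNF genes, whose zinc fingers usually lie in a single long last exon, had 7.31% of 4267 peaks spliced (129 of 396 genes), with 58 genes in more and 31 in fewer knockdown libraries. ZNF276 and ZNF7 were spliced in 5 lists, and ZNF217 and ZNF638 in 4. Ribosomal protein genes had 1 spliced peak of 37, in RPL28 of control replicate 3, so 0 genes in more and 1 in fewer knockdown libraries.

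Among writers of m6A, 6 of 9 genes had a spliced peak and 18.5% of 119 peaks were spliced, with 2 genes in more and 1 in fewer knockdown libraries. ZC3H13, a subunit of the writer complex, was spliced in 3 of 4, 0 of 3 and 2 of 4 peaks in the knockdown and 1 of 5, 0 of 3 and 2 of 5 in the controls. VIRMA was spliced in 4 lists and RBM15 and WTAP in 3 each. Of the demethylases, ALKBH5 had no spliced peak and FTO (3 of 5 peaks) had 1 each in knockdown replicates 1 and 3 and control replicate 3. Of 8 readers with a peak, 6 had a spliced one (22.2% of 63 peaks), with 1 gene in more and 3 in fewer knockdown libraries. YTHDF3, a cytoplasmic reader, had exactly 1 spliced peak in each of the 6 lists, YTHDF1 in 3 lists, YTHDC1 in 2 and IGF2BP3 in 1.

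Exon junction complex and nonsense-mediated decay genes had 16.5% of 139 peaks spliced (9 of 15 genes), with 3 in more and 4 in fewer knockdown libraries. UPF2, a decay factor, was spliced in 4 lists, PNN and CASC3, which bind the exon junction complex, in 3, and UPF3A in 2. Splicing factor genes had 11.7% of 137 (8 of 26 genes), with 2 in more and 3 in fewer knockdown libraries, led by HNRNPL and HNRNPM in 3 lists and DDX17 and SRSF11 in 2. H2B ubiquitination genes had 21.6% of 116 (9 of 14 genes), with 2 in more and 1 in fewer knockdown libraries, and ATXN7, ATXN7L3 and WAC spliced in 3 lists. RNF40, a ligase for histone H2B, had 2 spliced peaks in each library of replicate 1 and none in the others, at chr16:30780058-30780158 and chr16:30780720-30780795. At the first of these junctions the peaks held 50 and 71 nt on the 5′ and 3′ sides in the knockdown and 110 and 11 nt in the control, and at the other 83 and 37 nt against 83 and 67 nt. These peaks ranked low, at percentiles of 21.1 (knockdown) and 45.6 (control) at the first junction and 2.8 and 16.9 at the other. USP22, which removes ubiquitin from histones, had 1 peak in each list, all of a single block.

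Osteoblast and osteosarcoma genes had 15.6% of 122 peaks spliced (5 of 12 genes), with 0 in more and 2 in fewer knockdown libraries. ATRX, a chromatin remodeller often lost in osteosarcoma, and YAP1, the effector of Hippo signalling, were spliced in 4 lists and CDH11, a cadherin of osteoblasts, in 1. As markers of the cell line, RUNX2 and CDH11 had a peak of any kind in 5 lists and COL1A1 in 3, while COL1A2, SPARC, ALPL and VIM had none. PTPRC, EPCAM and PECAM1, which mark blood, epithelial and endothelial cells, had none either, and a missing peak does not show that a gene was silent.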

How the data were processed

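Peak lists of 6 m6A immunoprecipitates were used, 3 per siRNA, grouped by title. Per the submitters' processing notes, CASAVA 1.8.2, TopHat2 and SAMtools were used with the hg19 build. Not given in the sources used here were the peak caller, its threshold, the use of input and whether gene models or reads set the block borders. Each list was separate, so the authors deposited peaks called per library. The score that the authors deposited was read as a p-value, since it never exceeded 0.011, and used only to rank peaks within a list. Positions and block sizes follow the file headers of the deposited lists, where they are not normalized, and are printed counted from 1. The lists hold no counts, so depth is unknown and no interval for it could be given. Single gaps of a peak are peak calls, not counted reads.

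Blocks were read with Python 3.11.15 and pandas 2.3.3. Regions joined peaks that overlapped by 1 nt or more on one strand. Of 10536 gene numbers, 10500 matched a symbol in a RefSeq table of GRCh38.p14, used for names and gene type only. Library measures were compared by exact permutation tests with a threshold of 0.05, and spliced with single-block peaks by sign-flip tests over 6 lists, the code checked on simulated lists. Length classes were 10 classes of near-equal size per list, and per pair where the spliced shares of paired libraries were averaged over classes. Libraries of one number were paired in the replicate block and in comparisons within pairs, since the labels' protocol gives each number its own RNA and antibody. The main tests of library measures did not use the pairs. The departures of paired libraries from their group's mean correlated at 0.174, 0.0881 and 0.282 over junctions. Libraries of unlike number were not set beside these values, so they do not test the pairing.

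The members, gene lists and tests were chosen with earlier results of these data known. Genes named were RNF40, USP22 and ALKBH5, 10 genes with most junctions in all 6 lists, the 5 best ranked others, junctions confined to one siRNA in all its lists, the 5 genes with most blocks, the 5 longest and shortest gaps in 4 or more lists, and up to 4 members per list with the most spliced lists. Some genes under this rule are not reported here. Alternatives were the best-scored 50%, lists of equal size, repeated positions counted once, gaps under 50 nt closed, blocks of at least 30 nt, peaks with a gene number, standard chromosomes, 5 length classes, an overlap of 30 nt, each library left out and the replicate block. Added after the data were seen were equal exon length within pairs, genes with a peak in both libraries of a pair and replicate numbers as units.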

Additional observations from a re-analysis of the deposited data

How the results depend on the processing

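Depth is unknown, and 3 libraries per siRNA limit every comparison. With the replicate block, exact sign-flip permutation tests over the 3 pairs gave p = 0.25 for the spliced share (2.20 points), spliced peaks (455.7), genes (346), junctions (587.3) and median gap (-313 nt), and p = 0.5 for the exon length of spliced peaks (59.7 nt). The block changed no call.

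Leaving out each library in turn, the knockdown minus control difference ranged from -0.688 to 5.98 points for the spliced share, -195.8 to 1318 spliced peaks, -205.2 to 1055 genes, -196 to 1646 junctions, -30.3 to 164.5 nt of exon length and -481.7 to -148.7 nt of gap. It turned without knockdown replicate 3 for share (-0.410), peaks (-136), genes (-143.8), junctions (-118.2) and exon length (-30.3). It turned without control replicate 2 for share (-0.688), peaks (-195.8), genes (-205.2), junctions (-196) and exon length (-0.5). The groups hold unequal methods when any library is left out, and the cause of these turns was not tested. Junctions in every knockdown and no control list ranged from 13 to 329, and the reverse from 0 to 58, as fewer libraries had to agree. The spliced minus single-block difference in the share found again in the paired library ranged from -7.44 to 1.71 points, with 1.71 without replicate 2 in either group. It was 1.61 when every block had to reach 30 nt, and the cause was not tested. Within length classes this difference kept its sign, from -11.8 to -5.66 points with a library left out. Over the other alternatives it ran from -8.38 to -4.10 points.

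Spliced minus single-block differences ranged from 73.1 to 119.8 nt, 12.7 to 16.1 percentile points and 2.35 to 2.91 points within length classes, each with an exact permutation p = 0.062, the smallest that 5 lists allow. The 5′ block was the longer in 43.4 to 44.9% of peaks. With the best-scored 50% of each list, the length difference was 55.8 nt and the 5′ share 43.1% (p = 0.094 and 0.062), and with blocks of at least 30 nt that share was 46.4% (p = 0.19); these are exact permutation tests, and the cause was not tested. With the 3 replicate numbers as units, chosen after the data were seen, the values were 100.9 nt, 14.7 and 2.61 percentile points and 44.0%, each with an exact permutation p = 0.25, by construction of 3 units. The other 161 values kept their direction and, where tested, their side of the threshold. With lists of equal size, the difference in spliced share was 4.07 points and that in spliced peaks 231.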
